A study of Mus musculus with 30 samples.

Results

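The thrombospondin family of the mouse consists of Thbs1, Thbs2, Thbs3, Thbs4 and Comp (cartilage oligomeric matrix protein, the fifth thrombospondin), and it is described here across infarcted and sham-operated hearts. The members were taken by gene symbol, and they are 5 of the 43629 genes in the count tables. RNA was sequenced from hearts of wild-type C57BL/6J mice 2, 4 or 7 days after surgery. In the myocardial infarction (MI) groups the chest and pericardium were opened and a coronary artery was ligated, and in the sham groups the same operation was done without the ligation. Each of the 6 groups, MI and sham at days 2, 4 and 7, held 5 libraries. The labels give neither the part of the heart that was taken nor the age of the mice, and they number the replicates of a group without saying that each was a separate animal, so that p-values speak only of the spread among these samples, which may be technical.

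Thrombospondins are secreted glycoproteins of the extracellular matrix that act mainly by binding other molecules. Thbs1 and Thbs2 assemble into trimers and carry thrombospondin type 1 repeats, through which they bind the receptor CD36 and inhibit the growth of blood vessels. Thbs3, Thbs4 and Comp assemble into pentamers and lack those repeats. Thbs1 is stored in platelet granules, is made by many injured tissues and can activate latent TGF-beta. Thbs2 is known as a regulator of collagen fibril assembly, Comp as a collagen-binding protein of cartilage and tendon, and Thbs4, in the mouse heart, as a protein that rises under load and takes part in the Atf6 branch of the endoplasmic reticulum (ER) stress response.

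On the genome build GRCm38, Thbs1 (ENSMUSG00000040152) lies at chr2:118111876-118127133 on the plus strand and Thbs2 (ENSMUSG00000023885) at chr17:14665500-14694235 on the minus strand. Thbs3 (ENSMUSG00000028047) lies at chr3:89215180-89226837 on the plus strand, Thbs4 (ENSMUSG00000021702) at chr13:92751590-92794818 on the minus strand and Comp (ENSMUSG00000031849) at chr8:70373558-70382066 on the plus strand. Counts were made over whole genes, so that the values describe all exons and untranslated regions of a gene together. Exons of Thbs3 share 318 bases with exons of Mtx1 on the opposite strand, which averaged 22.6 CPM, a gene's count relative to the total of its library on a scale shared by all libraries. The libraries were made with a directional kit, but the strand setting of the counting is not given in the sources used here, and reads in the shared bases could have been given to either gene. Thbs1 shares 208 exonic bases with the antisense gene Gm29233, which averaged 0.0031 CPM.

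The sequence where the family's genes start is shown here as a description, and its part in their changes was not tested. The 250 bases before the annotated start are printed 5′ to 3′ on the strand of the gene, from RefSeq on GRCm38.p6, for Thbs2 (chr17:14694263-14694512, minus strand), Thbs3 (chr3:89214930-89215179, plus strand) and Thbs4 (chr13:92794819-92795068, minus strand). Thbs1 and Comp are named only, since the set of promoter sequences used here held none for them. Capitals mark every match, on either strand, to TATAAA (a box near the start of many genes), CATTCC (the core bound by TEAD factors) and CAGAC (the core bound by Smad proteins, which carry TGF-beta signals).
Thbs2: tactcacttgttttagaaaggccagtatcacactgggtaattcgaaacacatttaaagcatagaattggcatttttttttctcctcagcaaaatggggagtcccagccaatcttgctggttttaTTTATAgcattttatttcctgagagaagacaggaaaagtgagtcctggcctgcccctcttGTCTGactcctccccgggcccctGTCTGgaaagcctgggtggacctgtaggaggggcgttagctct
Thbs3: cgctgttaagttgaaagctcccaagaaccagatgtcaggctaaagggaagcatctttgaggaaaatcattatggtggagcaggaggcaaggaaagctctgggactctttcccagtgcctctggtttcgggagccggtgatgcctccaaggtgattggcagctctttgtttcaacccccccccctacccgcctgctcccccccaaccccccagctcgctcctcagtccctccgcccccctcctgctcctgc
Thbs4: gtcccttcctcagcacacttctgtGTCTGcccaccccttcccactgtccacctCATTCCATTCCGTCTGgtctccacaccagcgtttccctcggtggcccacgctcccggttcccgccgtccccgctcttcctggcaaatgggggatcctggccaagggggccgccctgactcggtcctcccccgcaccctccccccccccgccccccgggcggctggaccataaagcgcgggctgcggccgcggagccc
The Thbs2 stretch held TATAAA on the reverse strand 126 bases before the start and CAGAC on the reverse strand at 66 and 43 bases. The Thbs4 stretch held CATTCC on the forward strand at 197 and 192 bases, the 2 matches sharing 1 base, and CAGAC on the reverse strand at 226 and 186 bases. None of these 3 motifs was in the Thbs3 stretch. Among 32851 promoters of this length, 12.4% held TATAAA, 12.6% CATTCC and 42.2% CAGAC on either strand. CCAAT, held by 33.8% of them, was in the Thbs2 and Thbs3 stretches, GGGCGG (the core bound by Sp1), held by 32.7%, was in those of Thbs3 and Thbs4, and TGANTCA (the AP-1 site), held by 6.7%, was in none of the 3. The stretch of Thbs4 was 70.8% G and C, that of Thbs3 58.8% and that of Thbs2 46.8%. A match describes letters in these windows and not a bound site.

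The libraries had totals from 7841930 to 14070017 counts and detected 18668 to 20905 genes. The summed level of 4 cardiomyocyte markers (Myh6, Atp2a2, Tnnt2 and Actc1) was 27153 to 40841 CPM in MI libraries and 42390 to 62364 CPM in sham libraries, high in every library of these heart samples. The summed level of 4 lung epithelial markers was 176 to 2028 CPM in 6 libraries (MI day 7 replicate 2, sham day 4 replicates 2 and 3, and sham day 7 replicates 1, 2 and 3) and at most 29.8 CPM in the others. These 6 are called the libraries with lung transcripts below, though MI day 7 replicates 3, 4 and 5 also held 29.8, 11.9 and 24.9 CPM. The library MI day 7 replicate 4 held 806 CPM of 4 skeletal muscle markers, against at most 2.63 CPM in any other library. The library names of day 2 carry another number than those of days 4 and 7, so that day 2 and that number cannot be told apart when levels are compared between days. In RNA of whole tissue, fewer cells of a type and less RNA per cell cannot be told apart.

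**Figure D1:**
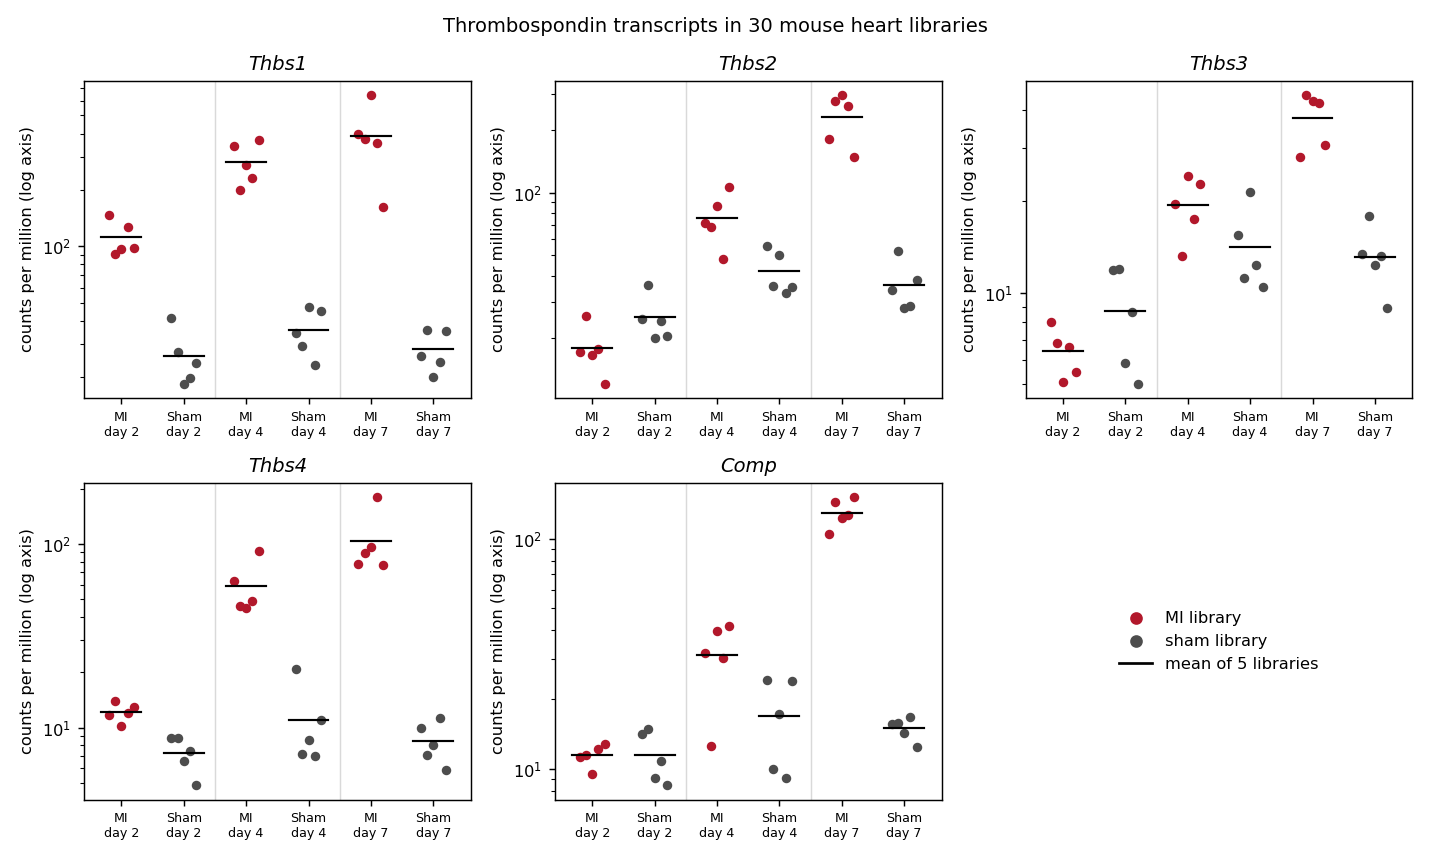
CPM of each member (log axis, its range differing between panels) in the MI and sham groups of days 2, 4 and 7; points are the 5 libraries of a group and lines are their means. At day 7 each MI library lies above each sham library in all 5 panels, and at day 2 this holds for Thbs1 and Thbs4.

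The 5 members differed in when they were called. Thbs1 was 4.04-fold higher in MI hearts at day 2 and 12.0-fold higher at day 7, and Thbs4 1.57-fold and 10.7-fold higher at those days (the day 2 call of Thbs4 was lost in a fit of all 30 libraries). Thbs2 was lower in MI hearts at day 2, 1.61-fold higher at day 4 and 5.62-fold higher at day 7. Thbs3 and Comp passed the threshold at day 7 alone in the fits of single days, 2.50-fold and 7.57-fold higher. In the fit of all 30 libraries Comp was also called higher at day 4 (adjusted p = 0.0166) and Thbs3 lower at day 2 (adjusted p = 0.0499). At day 4 Comp was 1.63-fold higher, beside 1.61-fold for Thbs2, so that these calls set no order in time between them. Differences were tested with edgeR's quasi-likelihood test, and a gene was called where its p, adjusted by the Benjamini-Hochberg method across the genes of the comparison, was under 0.05. Of the 5 members, 2 were called higher and 1 lower at day 2, where 46.3% of all genes tested were called, 24.1% higher and 22.2% lower. At day 4, 3 members were called, all higher, against 52.7% of all genes called, 27.5% higher and 25.2% lower. At day 7 all 5 were called higher, against 55.0% called, 28.4% higher and 26.6% lower. Over all genes the libraries of MI lay wholly above those of sham for 20.3% at day 2, 28.2% at day 4 and 29.3% at day 7. Among the members this held for Thbs1 and Thbs4 at days 2 and 4 and for all 5 at day 7. The median log2 fold change of the 5 members was -0.10 at day 2, 0.71 at day 4 and 2.92 at day 7, beside -0.01, 0.01 and 0.01 for all genes tested.

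Thbs1, the trimer that can activate latent TGF-beta, was higher in MI hearts at each of the 3 days. At day 2 it stood at 147, 91.4, 96.2, 127 and 98.3 CPM in the MI libraries, against 41.1, 27.2, 18.4, 19.8 and 23.7 CPM in the sham libraries. Every MI library lay above every sham library, and the log2 fold change was 2.02 ± 0.20 (SE; adjusted p = 7.86e-06). At day 4 the MI libraries read 343, 200.1, 273, 231 and 369 CPM and the sham libraries 34.4, 29.4, 47.1, 23.2 and 44.8 CPM. The groups were again apart, by 7.02-fold (log2 fold change 2.81 ± 0.21, adjusted p = 4.72e-07). At day 7 the MI libraries spread from 162 CPM in replicate 5 to 639 CPM in replicate 3, with 397, 375 and 357 CPM between them, against 25.8, 35.5, 19.9, 24.1 and 35.3 CPM in the sham libraries. Even the lowest MI library exceeded the highest sham library, and the log2 fold change was 3.59 ± 0.32 (adjusted p = 5.2e-06).

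Thbs1 is abundant in platelets. The summed level of 5 platelet and megakaryocyte markers was 105 to 161 CPM in MI libraries, against 27.7 to 44.5 CPM in sham libraries, at day 2, 97.5 to 183 and 23.9 to 33.1 CPM at day 4, and 38.8 to 165 and 19.1 to 38.3 CPM at day 7. Of these, 3 of the 4 tested at day 2 were called higher (Ppbp, Pf4 and Itga2b), Gp1ba did not pass the threshold, and Gp9 was not tested, with 0 counts in 1 sham library. At day 4 the same 3 were called higher. At day 7 Pf4 and Itga2b were called higher, while Ppbp (adjusted p = 0.371) and Gp1ba (adjusted p = 0.0557) did not pass. In MI hearts at days 2, 4 and 7 Pf4, the largest part of the sum, averaged 87.7, 115 and 66.4 CPM. Ppbp averaged 28.1, 12.0 and 7.05 CPM and Itga2b 9.13, 4.85 and 9.45 CPM. In the MI libraries of day 7, in the order of their replicate numbers, the platelet sum was 165, 38.8, 148, 42.5 and 49.5 CPM. The 2 libraries with the most platelet transcripts, replicates 1 and 3, were also the 2 highest for Thbs1. This did not hold at day 4, where MI replicate 5 was highest for Thbs1 (369 CPM) and lowest for the platelet sum (97.5 CPM). At day 2 MI replicate 1 was highest for both, while replicate 4, next highest for Thbs1 (127 CPM), had the lowest platelet sum (105 CPM). That sum was lowest there through Pf4 (63.0 CPM). Ppbp, Itga2b, Gp9 and Gp1ba were instead lowest in MI replicate 2 (13.6, 2.18, 0.234 and 1.87 CPM), the lowest MI library of that day for Thbs1 (91.4 CPM). Macrophage markers, 5 genes, summed to 466 to 1039.8 CPM in MI libraries, against 403 to 477 CPM in sham libraries, at day 2, and to 994 to 2170 and 320 to 688 CPM at day 7; 4 of 5 were called higher at day 2 and 5 of 5 at days 4 and 7. Replicates 1 and 3 of MI day 7 also had the 2 highest macrophage sums of their group (2170 and 1971 CPM). The MI libraries highest for Thbs1 at days 4 and 2, replicates 5 and 1, read 1455 and 727 CPM, not the highest of their groups. The part of platelets and macrophages in the Thbs1 result was not tested.

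Thbs2, the trimer known from collagen fibril assembly, was lower in MI hearts at day 2 and higher at days 4 and 7. At day 2 the MI libraries read 17.2, 25.6, 16.5, 17.8 and 12.1 CPM, against 24.8, 36.2, 20.1, 24.3 and 20.5 CPM in sham libraries. One MI library, replicate 2, lay above 4 of the sham libraries, and the log2 fold change was -0.59 ± 0.18 (adjusted p = 0.0152). By day 4 it had 71.5, 68.2, 86.2, 48.0 and 106 CPM in MI libraries, against 55.3, 35.7, 50.4, 32.9 and 35.2 CPM in sham libraries. The groups overlapped through MI replicate 4 and sham replicates 1 and 3 (log2 fold change 0.69 ± 0.20, adjusted p = 0.0107). At day 7 the MI libraries had 182, 275, 294, 262 and 149 CPM and the sham libraries 34.0, 52.4, 27.8, 28.6 and 38.3 CPM. The groups lay far apart, and the log2 fold change was 2.49 ± 0.21 (adjusted p = 2.53e-06).

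Thbs3, a pentameric member and the least abundant of the family per length of transcript in MI hearts, differed at day 7. Its levels at day 2 were 8.02, 6.86, 5.09, 6.61 and 5.49 CPM in MI libraries, against 11.9, 11.9, 5.89, 8.65 and 5.02 CPM in sham libraries. The groups overlapped and the difference did not pass the threshold (log2 fold change -0.53, 95% interval -0.997 to -0.058, adjusted p = 0.0621). Without sham replicate 3 it was -0.64 (adjusted p = 0.0267) and without sham replicate 5 -0.67 (adjusted p = 0.0115), past the threshold. At day 4 it had 19.6, 13.3, 24.3, 17.5 and 22.9 CPM in MI libraries and 15.5, 11.2, 21.4, 12.4 and 10.4 CPM in sham libraries, again with overlap. That difference did not pass either (0.29, 95% interval -0.11 to 0.69, adjusted p = 0.212), but without sham replicate 3 it was 0.45 (adjusted p = 0.0314). At day 7 the 5 MI libraries read 28.0, 44.7, 43.0, 42.3 and 30.6 CPM, against 13.5, 17.9, 12.3, 13.2 and 8.93 CPM in sham libraries. The groups did not overlap (log2 fold change 1.32 ± 0.17, adjusted p = 2.7e-05). Mtx1, which shares bases with Thbs3, moved the other way at that day, with means of 19.7 CPM in MI, against 21.5 CPM in sham (log2 fold change -0.32, adjusted p = 0.02). The fit also scales the libraries to each other, which CPM do not, and its fold change is larger than the ratio of these means. At day 2 Mtx1 was also called lower (-0.28, adjusted p = 0.0423), in the direction of Thbs3 at that day. Its difference at day 4 did not pass (-0.06, adjusted p = 0.66). The part of shared reads in the Thbs3 values was not tested.

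Thbs4, the pentamer known for its role in the ER of the loaded heart, was higher in MI hearts at all 3 days. At day 2 the difference was small and the groups did not overlap, with 11.7, 13.95, 10.2, 12.0 and 12.9 CPM in MI libraries and 8.79, 8.75, 6.58, 7.49 and 4.85 CPM in sham libraries. The log2 fold change was 0.65 ± 0.15 (adjusted p = 0.00245), and in a fit of all 30 libraries it was 0.63 and did not pass (adjusted p = 0.0826). By day 4 the MI libraries read 63.1, 45.9, 44.9, 49.1 and 92.0 CPM, against 20.9, 7.20, 8.60, 7.04 and 10.99 CPM in sham libraries. Sham replicate 1 stood above the other sham libraries and below every MI library, and the log2 fold change was 2.25 ± 0.33 (adjusted p = 0.000248). At day 7 the MI libraries had 78.0, 88.8, 96.0, 179.8 and 76.9 CPM, against 9.98, 7.06, 8.03, 11.3 and 5.87 CPM in sham libraries. All MI libraries lay far above all sham libraries (log2 fold change 3.42 ± 0.26, adjusted p = 1.72e-06).

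The highest of these Thbs4 values, 179.8 CPM, came from MI day 7 replicate 4, the library with skeletal muscle transcripts. There Mylpf, a myosin light chain of fast skeletal muscle, stood at 312 CPM, Myh1 at 288 CPM, Actn3 at 174 CPM and Myh4 at 32.1 CPM, while in the other 4 MI libraries of day 7 these 4 markers summed to 0.825 to 2.28 CPM. Tendon and muscle attachments are known sites of Thbs4, and Tnmd, a marker of tendon, read 5.63 CPM in this library and 0.455 to 1.40 CPM in the others of the group. Of the 8 tendon and cartilage markers, Scx, Fmod and Col2a1 were also highest there, and Mkx, Chad, Cilp2 and Acan were not. Comp read 127 CPM there, within the range of the other libraries of the group (105 to 152 CPM). The part of such tissue in the Thbs4 value was not tested. Without this library the log2 fold change of Thbs4 at day 7 was 3.13 ± 0.16 (adjusted p = 2.41e-07).

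Comp, the collagen-binding pentamer of cartilage and tendon, was called at day 7 alone in the fits of single days. At day 2 the MI libraries read 11.2, 11.5, 9.44, 12.2 and 12.9 CPM, against 14.2, 14.8, 9.14, 10.8 and 8.46 CPM in sham libraries. The MI values lay within the range of the sham values, and the log2 fold change was -0.10 with a 95% interval from -0.42 to 0.23 (adjusted p = 0.638). At day 4 it had 31.9, 12.6, 39.8, 30.2 and 41.5 CPM in MI libraries and 24.3, 9.99, 17.3, 9.15 and 24.0 CPM in sham libraries. Here 4 MI libraries lay above every sham library and replicate 2 lay among them. The difference did not pass (0.71, 95% interval -0.11 to 1.52, adjusted p = 0.131), and without that replicate it was 0.90 (adjusted p = 0.0178). At day 7 the MI libraries read 105, 144, 123, 127 and 152 CPM, against 15.6, 15.8, 14.3, 16.8 and 12.4 CPM in sham libraries. The spread within each group was small, and the log2 fold change of 2.92 ± 0.12 had the lowest adjusted p of the family (6.36e-09).

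Markers of tendon and cartilage (8 genes) summed to 76.8 to 184 CPM in MI libraries, against 32.1 to 49.8 CPM in sham libraries, at day 7, and to 22.1 to 28.9 and 28.6 to 38.0 CPM at day 2. At day 7 Scx and Fmod were called higher and Cilp2 lower of the 4 markers tested at each of the 3 days. Col2a1 and Acan passed the filter on low counts at day 7 alone, through the MI libraries, so that they had to differ there. Tnmd and Mkx, markers of tendon cells, were too low to be tested. The 6 markers of activated fibroblasts (Postn, Cthrc1, Acta2, Tnc, Lox and Fap) summed to 499.6 to 813 CPM in MI libraries, against 231 to 513 CPM in sham libraries, at day 2, to 1655 to 2716 and 352 to 725 CPM at day 4, and to 2191 to 3926 and 340 to 645 CPM at day 7. Of these 6, 4 were called higher at day 2 and all 6 at days 4 and 7. The 5 general fibroblast markers (Pdgfra, Dcn, Gsn, Tcf21 and Col1a1) summed to 1319.6 to 1741 CPM in MI libraries, against 1457 to 3104 CPM in sham libraries, at day 2, where Thbs2 was also lower. There Dcn (log2 fold change -0.77) and Gsn (-1.04) were called lower and none higher. At day 4 they summed to 2801 to 5010.3 and 2387 to 3706 CPM, with 2 called higher and 2 lower. At day 7 they summed to 3769 to 7577 and 1957 to 2799.9 CPM, with 4 called higher and Gsn lower. The part of these cells in the results for the 5 members was not tested.

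**Figure D2:**
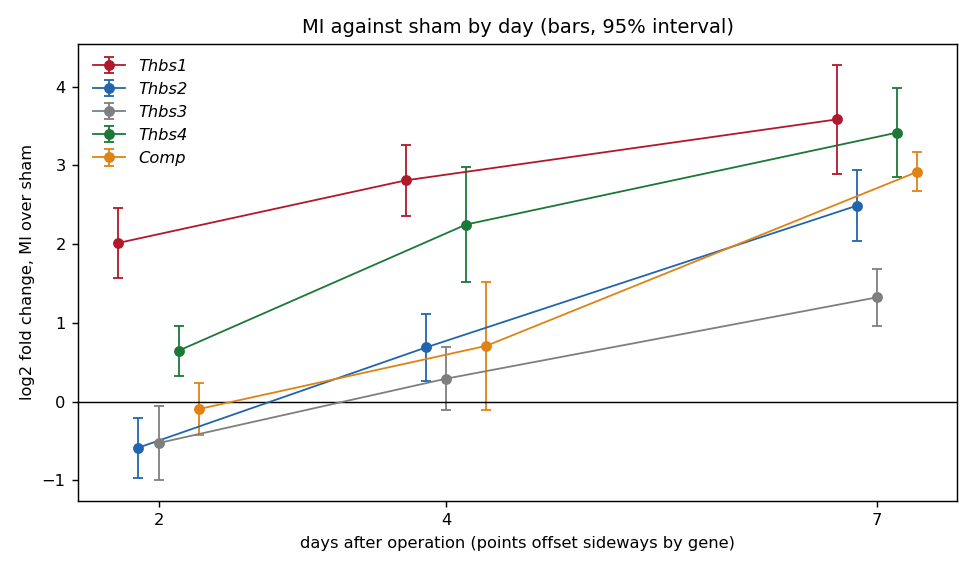
Log2 fold change of MI over sham for each member at days 2, 4 and 7, with bars for the 95% interval of the edgeR fit of each day's 10 libraries; points are offset sideways by gene. Thbs1 stands highest at day 2 with 2.02, and at day 7 all 5 intervals lie above 0, between 1.32 for Thbs3 and 3.59 for Thbs1.

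Whether the difference between MI and sham itself changed with time was tested as an interaction in 1 fit of all 30 libraries. Between days 2 and 7 it grew for all 5 members, by 1.60 ± 0.38 on the log2 scale for Thbs1 (adjusted p = 0.00443), 3.11 ± 0.32 for Thbs2 (adjusted p = 1.4e-07), 1.88 ± 0.30 for Thbs3 (adjusted p = 9.37e-05), 2.80 ± 0.40 for Thbs4 (adjusted p = 3.03e-05) and 3.04 ± 0.35 for Comp (adjusted p = 1.01e-06). In that contrast 19.2% of all genes were called and 10.1% called higher. Thbs2 and Thbs4 had grown by day 4, by 1.28 ± 0.31 (adjusted p = 0.0161) and 1.61 ± 0.40 (adjusted p = 0.0176), where 4.80% of all genes were called and 2.51% called higher. From day 4 to day 7 Thbs2 gained a further 1.82 ± 0.31 (adjusted p = 0.00178) and Comp 2.23 ± 0.34 (adjusted p = 0.000707), where 1.02% of all genes were called and 0.702% called higher.

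The other 6 differences between neighbouring days did not pass the threshold in this fit. Thbs1 changed by 0.80 in both steps (adjusted p = 0.228 from day 2 to day 4 and 0.34 from day 4 to day 7), with 95% intervals from 0.02 to 1.58 in each. Thbs3 changed by 0.83 (adjusted p = 0.112; 0.97 and 0.0437 without sham day 4 replicate 3) and then by 1.05 (adjusted p = 0.0731; 1.18 and 0.0378 without sham day 7 replicate 2, 1.12 and 0.046 without MI day 7 replicate 5). Thbs4 changed by 1.19 from day 4 to day 7 (adjusted p = 0.136; 1.40 and 0.049 without MI day 4 replicate 5). Comp changed by 0.81 from day 2 to day 4 (adjusted p = 0.181; 0.99 and 0.0383 without MI day 4 replicate 2). Without the 6 libraries with lung transcripts, 3 calls were lost: Thbs1 from day 2 to day 7 (1.49, adjusted p = 0.0539), Thbs2 from day 4 to day 7 (1.84, adjusted p = 0.0846) and Thbs4 from day 2 to day 4 (1.34, adjusted p = 0.0848). That choice left only replicates 4 and 5 of sham day 7 and replicates 1, 4 and 5 of sham day 4. Lung transcripts and fewer libraries therefore cannot be told apart in these losses. At day 7 itself each of the 5 members was also called without the 6 libraries, with log2 fold changes of 3.46 for Thbs1, 2.48 for Thbs2, 1.45 for Thbs3, 3.39 for Thbs4 and 2.86 for Comp (adjusted p from 0.000157 to 0.00248).

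Within the MI hearts the levels of all members were higher at day 4 than at day 2, by 1.24 on the log2 scale for Thbs1, 1.99 for Thbs2, 1.501 for Thbs3, 2.17 for Thbs4 and 1.34 for Comp (adjusted p from 6.47e-08 to 0.000399), where 46.0% of all genes were called and 24.0% called higher. From day 4 to day 7 Thbs2, Thbs3, Thbs4 and Comp rose further in MI hearts, by 1.60, 0.95, 0.81 and 2.05 (adjusted p of 1.76e-05, 0.00258, 0.0294 and 1.5e-06), where 12.6% of all genes were called and 6.26% called higher. Thbs1 differed by 0.45 there, which did not pass (adjusted p = 0.26). In the sham hearts Thbs2 and Thbs3 were higher at day 4 than at day 2, by 0.71 (adjusted p = 0.0194) and 0.68 (adjusted p = 0.0209), where 24.4% of all genes were called and 11.7% called higher. Thbs1, Thbs4 and Comp differed between those sham days by 0.43, 0.56 and 0.53, which did not pass (adjusted p of 0.269, 0.171 and 0.122). No member was called between sham days 4 and 7, where 0.122% of all genes were called. Day 2 libraries carry another number in their names, which cannot be told apart from the day in the comparisons with day 2.

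The 6 group means were put in order and neighbours compared in the fit of all 30 libraries, where 42.4% of all genes were called between MI and sham at day 2, 51.7% at day 4 and 52.8% between MI day 2 and sham day 4. Thbs1 led with MI day 7 (386 ± 170 CPM, SD, n = 5) and MI day 4 (283 ± 71.8 CPM), followed by MI day 2 (112 ± 23.8 CPM) and then by the sham groups (35.8 ± 10.1, 28.1 ± 6.996 and 26.0 ± 9.10 CPM at days 4, 7 and 2). The top pair and the sham groups did not differ beyond their spread. Thbs2 ran from MI day 7 (232 ± 63.1 CPM) over MI day 4 (76.1 ± 21.8 CPM) and the sham groups (41.9 ± 10.2, 36.2 ± 9.97 and 25.2 ± 6.52 CPM at days 4, 7 and 2) to MI day 2 (17.9 ± 4.90 CPM), its lowest group. Thbs3 had the same order, with 37.7 ± 7.79 CPM at the top in MI day 7 and 6.42 ± 1.16 CPM at the bottom in MI day 2, but MI day 4 (19.5 ± 4.404 CPM) did not differ from sham day 4 (14.2 ± 4.49 CPM) beyond the spread, and MI day 2 lay only just past the threshold below sham day 2 (8.68 ± 3.25 CPM, adjusted p = 0.0499). For Thbs4, MI day 7 (104 ± 43.2 CPM) and MI day 4 (59.0 ± 19.8 CPM) stood above MI day 2 (12.2 ± 1.41 CPM), whose next neighbour, sham day 4 (10.9 ± 5.77 CPM), did not differ from it. Comp had MI day 7 (129.9 ± 18.4 CPM) and MI day 4 (31.2 ± 11.5 CPM) at the top, and the other 4 groups, from 16.9 ± 7.28 CPM in sham day 4 to 11.4 ± 1.28 CPM in MI day 2, did not differ between neighbours. In this fit MI day 4 differed from sham day 4 for Comp (adjusted p = 0.0166), which it did not in the fit of that day alone. Where a group of day 2 neighbours a group of day 4 or 7, the day cannot be told apart from the number in the library names.

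To compare levels between members, CPM were divided by the length of the annotated exons in kilobases. Summed over the 5 genes, the level per kilobase was 29.9 ± 4.12 in MI and 15.8 ± 3.98 in sham hearts at day 2, 90.0 ± 23.2 and 23.9 ± 6.51 at day 4, and 179.9 ± 38.4 and 20.2 ± 2.73 at day 7 (SD, n = 5 each). Thbs1 made up 61.3% of that sum in MI and 27.1% in sham hearts at day 2, 51.9% and 25.0% at day 4, and 34.3% and 22.9% at day 7. Its share in MI hearts was highest at day 2 and lowest at day 7, where it spread from 20.8 to 46.4% over the libraries. Comp made up 13.0% in MI and 24.6% in sham hearts at day 2 and 25.5% and 25.3% at day 7, and Thbs2 8.65% and 23.0% at day 2 and 18.3% and 25.4% at day 7. The share of Thbs3 was 4.38 to 4.56% in MI and 11.1 to 13.5% in sham hearts. These shares depend on which exons a heart uses, which counts per gene do not show.

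**Figure D3:**
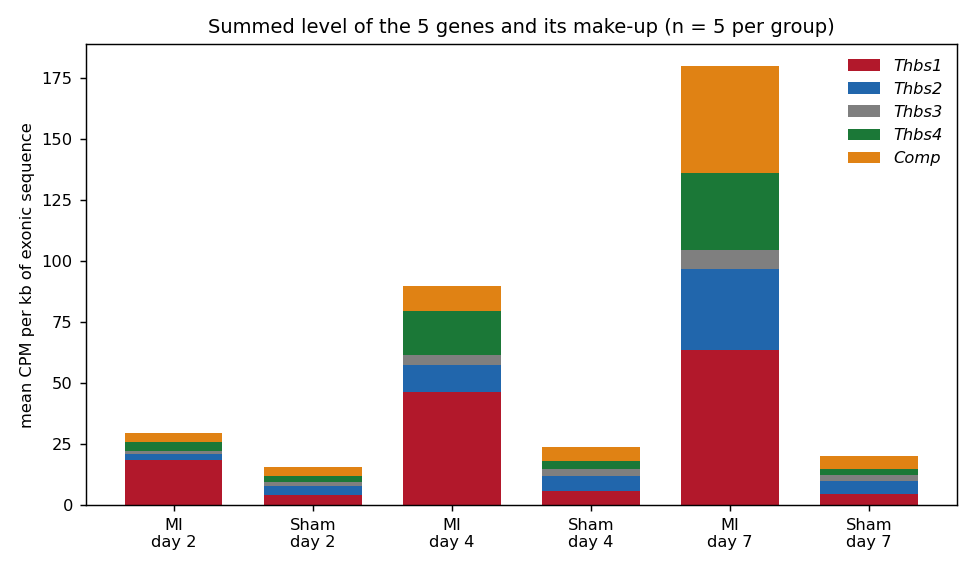
Mean CPM per kilobase of exonic sequence, stacked over the 5 members, in the 6 groups (n = 5 libraries each). The MI bars reach 29.9, 90.0 and 179.9 at days 2, 4 and 7, beside 15.8, 23.9 and 20.2 for sham, and Thbs1 takes the largest part of each MI bar.

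The genes that thrombospondins bind, act on or resemble were followed in 8 lists of 121 genes, all of which were found in the tables. Their counts stand beside the shares of all genes called, 24.1% higher and 22.2% lower at day 2, 27.5% and 25.2% at day 4, and 28.4% and 26.6% at day 7. Their medians stand beside those of all genes, -0.01, 0.01 and 0.01. Of 19 cell-surface receptors, all tested, 11 were higher and 2 lower at day 2, 12 and 3 at day 4, and 14 and 3 at day 7, with medians of 0.37, 0.53 and 0.68. Lrp8, an ApoE receptor that also binds thrombospondin in the mouse brain, had a mean of 24.8 CPM in MI hearts, against 2.26 CPM in sham hearts, at day 4 (log2 fold change 3.27 ± 0.17, adjusted p = 9.83e-09). Itgb3, the integrin beta chain of platelets and of the alpha v receptor, was higher by 2.14 at day 2, and Itgam, a leukocyte integrin chain, by 1.74 at that day. Itgav rose by 1.203 and Lrp1, the endocytic receptor that clears thrombospondins, by 1.78 at day 7. The 2 best known receptors of Thbs1 moved apart at day 4. Cd36, a fatty acid transporter that the heart also uses for fuel, fell to 1172 CPM in MI hearts at day 4, against 1964 CPM in sham hearts (log2 fold change -0.92, adjusted p = 7.29e-05). Cd47, an integrin-associated protein found on most cells, was higher by 0.24 at that day (adjusted p = 0.0144). At day 2 Cd36 averaged 2243 CPM in MI hearts and 2243 CPM in sham hearts, and at day 7 1067 and 1712 CPM.

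Of 18 matrix proteins that bind thrombospondins, 10 were tested at each of the 3 days. Of these 2 were higher and 2 lower at day 2, 6 and 1 at day 4, and 10 and none at day 7, with medians of 0.14, 1.43 and 2.33. Another 5, Acan, Col2a1, Col9a2, Matn3 and Matn4, passed the filter on low counts at day 7 alone. They did so through the MI libraries, so that all but Matn4 had to differ there, and they are given as a description. Matn4 read 0.66 to 2.35 CPM in the sham libraries of day 7, so that the filter favoured a difference without forcing it. Col12a1, a collagen on the surface of fibrils, had a mean of 104 CPM in MI hearts, against 5.27 CPM in sham hearts, at day 7 (log2 fold change 4.11). At day 7 Acan, the large proteoglycan of cartilage, Col9a2, a chain of cartilage collagen IX, and Matn4, a matrilin, averaged 9.88, 9.24 and 19.2 CPM in MI hearts and 0.498, 0.511 and 1.52 CPM in sham hearts (log2 fold changes of 3.97, 3.94 and 3.45). In the list of tendon, cartilage and late scar genes (14 genes), 9 were tested at each day. Of these 2 were higher and 2 lower at day 2, 3 and 2 at day 4, and 6 and 1 at day 7. Col11a1, a chain of a collagen that starts fibrils, passed the filter from day 4 on, through the MI libraries. It therefore had to differ there and is given as a description, with 68.4 CPM in MI and 1.07 CPM in sham hearts at day 7 (log2 fold change 5.79). Cilp, Ecrg4 and Fmod were higher by 2.98, 2.46 and 2.33 at that day.

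In the TGF-beta system, whose latent ligand Thbs1 can activate, 8 of 15 genes were higher and 3 lower at day 2, 12 and 2 at day 4, and 13 and 1 at day 7. Ltbp2, a latent TGF-beta binding protein homologue of the microfibrils, had a mean of 245 CPM in MI hearts, against 11.9 CPM in sham hearts, at day 7 (log2 fold change 4.17 ± 0.26, adjusted p = 4.67e-07), and Ccn2, a matricellular target, was higher by 2.84. Of the ligands, Tgfb3 was higher by 1.84 at day 7 and Tgfb1 by 0.90 at day 4. Proteases that cut thrombospondins or the matrix were higher in 6 and lower in 4 of 11 tested at day 2, 6 and 2 at day 4, and 7 and 1 at day 7. Mmp9 (3.81 at day 2), Adamts4 (2.91 at day 2) and Adamts1, a protease known to cleave Thbs1 and Thbs2 (1.35 at day 2), had their largest changes early, and Adamts12 (2.61) and Mmp14 (2.35) at day 7.

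ER folding genes and Atf6 belong to the branch that Thbs4 is known to act on. Of 14 genes, 11 were higher and none lower at day 2, 10 higher and 1 lower at day 4, and 6 higher and 2 lower at day 7, with medians of 0.69, 0.52 and 0.22, beside 24.1, 27.5 and 28.4% of all genes higher. Manf, a secreted protein of the ER stress response, had a mean of 198 CPM in MI hearts, against 70.3 CPM in sham hearts, at day 2 (1.41 ± 0.17, adjusted p = 2.85e-05). Sdf2l1, an ER chaperone component, was higher by 1.56 at day 4 and Pdia4, a disulfide isomerase, by 0.97, while Creld2 and Hspa5, the chaperone BiP, were higher by 1.10 and 0.75 at day 2. Atf6 itself was lower by 0.42 in MI hearts at day 7 (adjusted p = 0.00343). In the interaction from day 2 to day 7, 5 of these 14 genes were called lower and none higher, beside 9.11 and 10.1% of all genes, while Thbs4 was called higher.

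Other proteins with thrombospondin repeats (17 genes, 12 tested) were higher in 2 and lower in 4 at day 2, 3 and 1 at day 4, and 8 and none at day 7. The counts of higher genes at days 2 and 4 are near the shares of all genes, 24.1 and 27.5%. Ccn4 and Adamtsl2, which regulates fibrillin microfibrils, were higher by 2.51 and 2.44 at day 7, whereas Spon2 (F-spondin family) and Rspo1, which strengthens Wnt signals, had log2 fold changes of -1.16 each at day 2 (adjusted p of 4.77e-05 and 0.0205). Of the nitric oxide and VEGF genes, the pathways that Thbs1 inhibits through CD47 and CD36, 2 of 11 were higher and 5 lower at day 2, 1 and 5 at day 4, and 5 and 4 at day 7. Vegfb, Kdr and Vegfa had log2 fold changes of -0.84, -0.79 and -0.73 at day 7, and Gucy1b1, a subunit of the nitric oxide receptor, was higher by 0.70.

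**Figure D4:**
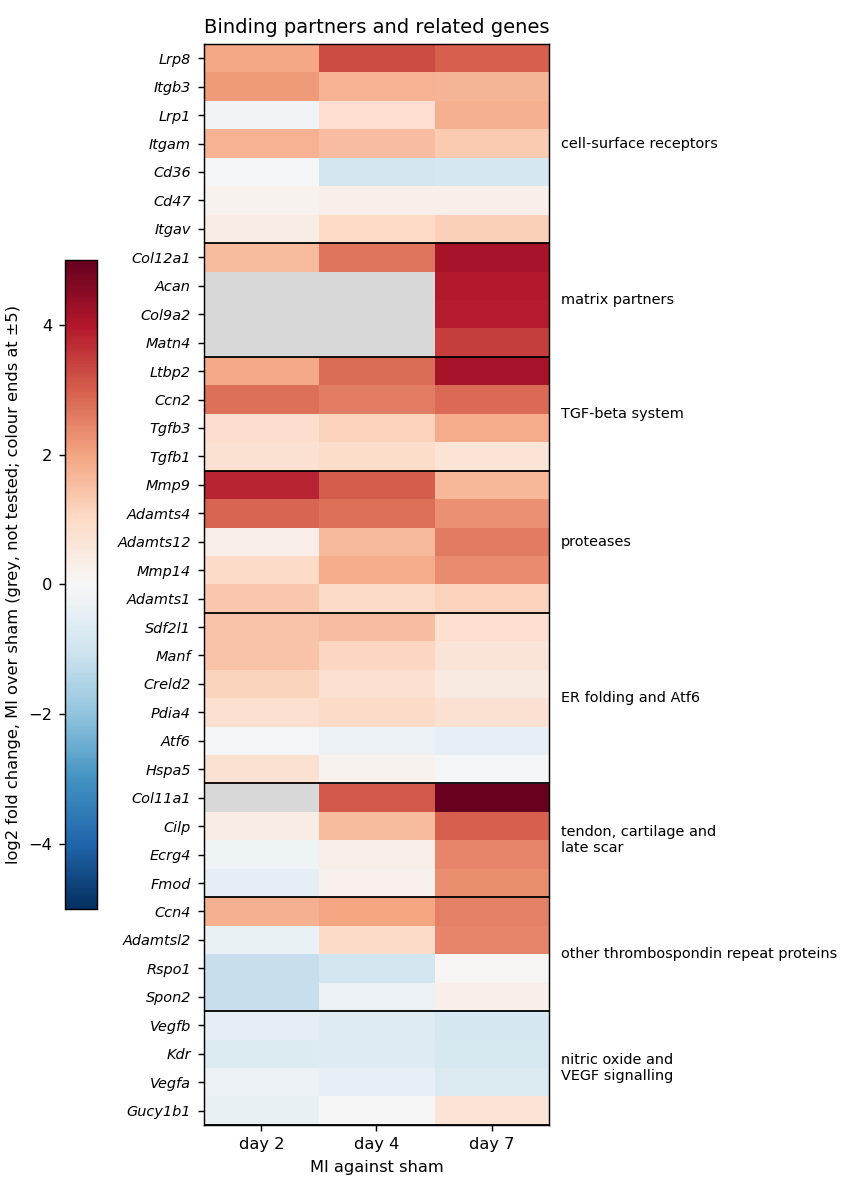
Log2 fold change of MI over sham (colour, red higher and blue lower) at days 2, 4 and 7 for the genes named from the 8 lists; grey cells were not tested. Mmp9 (3.81) is reddest at day 2, whereas Col11a1 (5.79), Ltbp2 (4.17) and Col12a1 (4.11) are reddest at day 7. Col11a1, Acan and Col9a2 passed the filter on low counts through the MI libraries and had to differ there. Matn4 passed in the same way, and the filter favoured a difference without forcing it.

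For each member, the 3 genes whose 6 group means ran closest to its own were found by the root mean square difference of mean log2(CPM + 1), each gene centred on its own mean; they were chosen for this likeness and are given as a description. Closest to Thbs1 were Lox, the enzyme that crosslinks collagen (0.18), Mpeg1, a macrophage perforin (0.26), and Gdf6, a secreted growth factor (0.27), while the group means of Thbs1 spanned 3.77. Lox had 621 CPM in MI hearts at day 7 on average, against 38.8 CPM in sham hearts. Closest to Thbs2 were Fndc1 (0.14), the fibril-associated collagen gene Col14a1 (0.20) and the growth factor gene Mdk (0.22), and closest to Thbs3 the carboxypeptidase gene Cpz (0.09), the fibroblast cadherin gene Cdh11 (0.11) and the gelatinase gene Mmp2 (0.15). Thbs4 ran with Col5a2, a chain of the fibril collagen V (0.18), Ms4a7, a macrophage gene (0.18), and Cilp (0.20), and Comp with Itgbl1 (0.19), Adamts16 (0.21) and Col9a2 (0.21). Adamts16 and Col9a2 were near 0 in the sham groups, at no more than 0.511 CPM on average, where Comp was not. The points share the 30 libraries and their depths.

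**Figure D5:**
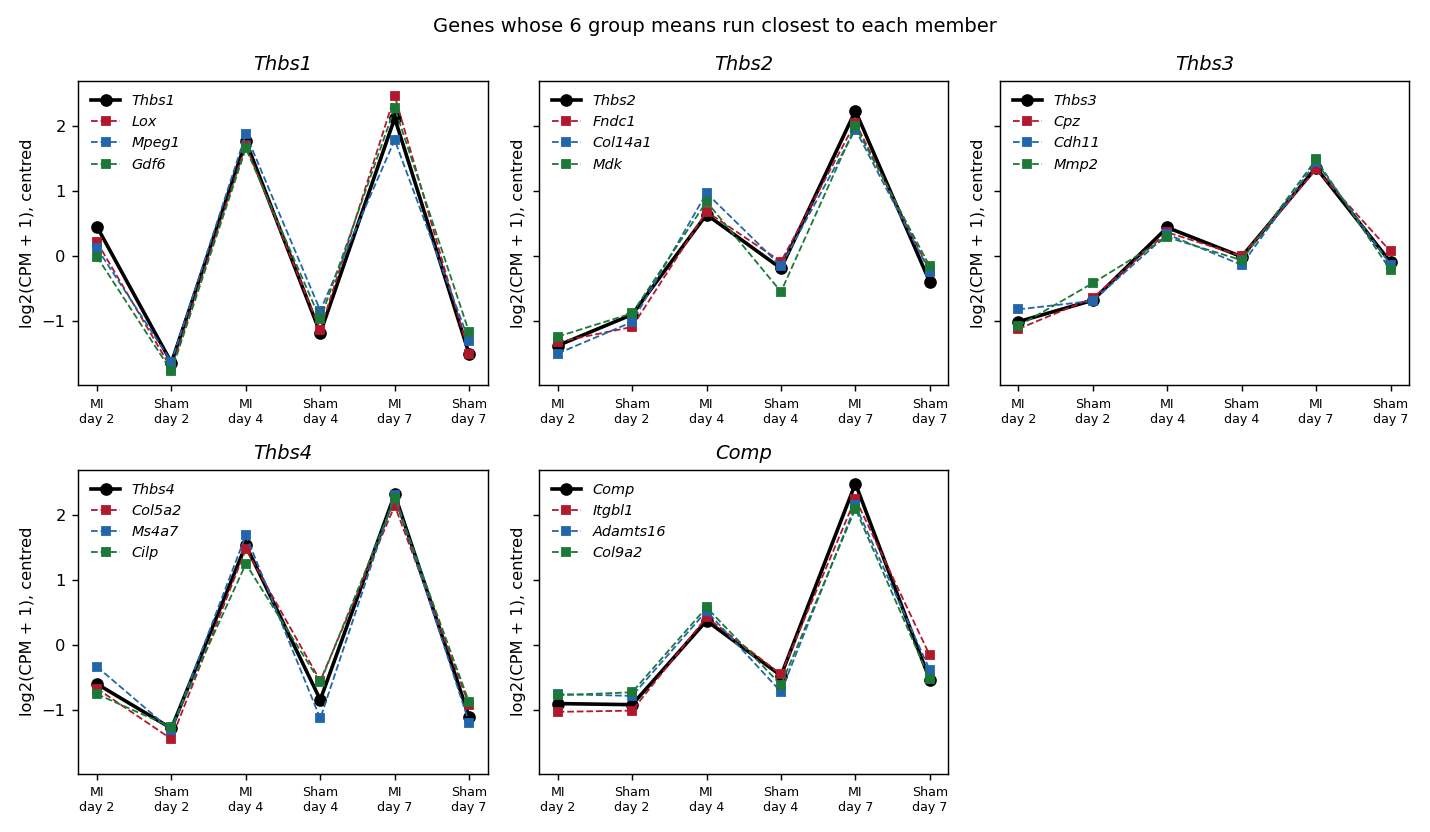
Mean log2(CPM + 1) of each member and of the 3 genes closest to it, each centred on its own mean, over the 6 groups (5 libraries each; lines join groups only to guide the eye). The Thbs3 panel has the narrowest span and the closest genes, with root mean square differences of 0.09 to 0.15.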

How the data were processed

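The 30 mouse heart libraries were made with a directional kit and read from both ends, as the labels' protocols state. What was deposited is 1 table per library of whole-number counts per Ensembl gene, which the authors made with featureCounts on GRCm38 after bcl2fastq 2.20.0, per the submitters' processing notes; for the aligner and the strandedness of the counting, nothing is given in the sources used here. Symbols, positions and exon lengths were taken from GENCODE on GRCm38, where 97.3% of the 43629 identifiers have a name. CPM are counts over the library total, without the TMM scaling of the fits, so that ratios of mean CPM can differ from the fold changes.

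For each day MI was tested against sham using its 10 libraries, and differences between days in 1 fit of all 30, with edgeR 4.0.16 in R 4.3.3 (filterByExpr with minimum count 10 and minimum total 15, TMM, robust quasi-likelihood F test, 2-sided, Benjamini-Hochberg adjustment over all genes tested, called under 0.05). The 95% intervals come from the same fits and are not adjusted. The scripts were first tested on simulated counts with changes of known size. Totals from 7841930 to 14070017 counts set the precision; 3 counts, the limit that a count of 0 allows, are below 1 CPM in each library, and this covers counting error only. No pair of replicates agreed within sampling noise (lowest chi-square per degree of freedom 5.75).

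The members, the 8 gene lists and the 12 marker lists were chosen with earlier results of these data known. The genes named are the members, up to 4 called genes per list with the largest change and a mean of at least 1 CPM, 9 fixed genes, and the 3 genes closest to each member; 1 gene that the rule names is counted in its list but not reported here. Besides these, marker genes and Mtx1 are given where they bear on a member. Alternatives were median-ratio factors, DESeq2 1.42.0, limma 3.58.1 voom with sample weights, no filter, a mean of at least 1 CPM, the replicate number as a block, totals without the 20 most counted genes, another choice of libraries in the fit, and leaving out each library or the 6 with lung transcripts.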

Additional observations from a re-analysis of the deposited data

Results flagged for a closer look

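Of the 30 combinations of member and group, 2 held a library far from the other 4 by Dixon's test, where chance alone flags about 1 in 20. Thbs4 read 179.8 CPM in MI day 7 replicate 4, the library with 806 CPM of skeletal muscle markers, while the next highest MI library of that day read 96.0 CPM. The part of that tissue in the Thbs4 value was not tested. Thbs4 also read 20.87 CPM in sham day 4 replicate 1, where the next highest sham library read 10.99 CPM. Without the first the log2 fold change of Thbs4 at day 7 was 3.13, and without the second it was 2.62 at day 4, both called.

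Of the 15 tests of whether the difference between MI and sham changed between days, 9 passed the threshold. Of all genes, 19.2% were called from day 2 to day 7, 4.80% from day 2 to day 4 and 1.02% from day 4 to day 7. From day 2 to day 7 the log2 fold change grew by 1.60 for Thbs1, 3.11 for Thbs2, 1.88 for Thbs3, 2.80 for Thbs4 and 3.04 for Comp. From day 2 to day 4 it grew by 1.28 for Thbs2 and 1.61 for Thbs4, and from day 4 to day 7 by 1.82 for Thbs2 and 2.23 for Comp. These 3 contrasts share groups and are not independent.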

How the results depend on the processing

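The calls of Thbs1, Thbs2 and Thbs4 at days 4 and 7, those of Thbs1 and Thbs2 at day 2 and those of Thbs3 and Comp at day 7 kept their direction and their side of the threshold under each alternative run. The following results of members did not. In the fit of all 30 libraries Thbs4 at day 2 was 0.63 (adjusted p = 0.0826), Thbs3 at day 2 -0.55 (0.0499) and Comp at day 4 0.69 (0.0166). With DESeq2, Thbs3 at day 2 was -0.53 (0.0472) and the growth from day 4 to day 7 was 1.04 for Thbs3 (0.0271) and 1.18 for Thbs4 (0.0484). With limma voom, Comp at day 4 was 0.81 (0.0461) and Thbs3 grew by 0.91 from day 2 to day 4 (0.0421) and by 1.0 from day 4 to day 7 (0.0394). Without the libraries with lung transcripts, the 3 growths that lost their call were 1.49 for Thbs1 from day 2 to day 7, 1.84 for Thbs2 from day 4 to day 7 and 1.34 for Thbs4 from day 2 to day 4.

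The labels do not tie replicates of the same number to each other. Their deviations correlated from -0.192 to 0.23 between MI and sham, and not every library correlated best with its own number. Libraries of different numbers correlated from -0.477 to 0.366, so that these values do not decide whether replicates were paired. With the replicate number as a block, 5 more results passed: Thbs3 at day 2 (-0.49, 0.0166), Thbs3 from day 2 to day 4 (0.795, 0.038) and from day 4 to day 7 (1.05, 0.0153), Thbs4 from day 4 to day 7 (1.09, 0.0464) and Comp at day 4 (0.71, 0.0119).

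Leaving out each library in turn gave log2 fold changes from -0.67 to -0.40 for Thbs3 at day 2, 0.20 to 0.45 at day 4, and growths of 0.68 to 0.97 from day 2 to day 4 and 0.90 to 1.18 from day 4 to day 7. The growth of Thbs4 from day 4 to day 7 was 0.82 to 1.40. Comp ran from -0.19 to 0.0025 at day 2, turning sign without sham day 2 replicate 2, from 0.55 to 0.90 at day 4, and its growth from day 2 to day 4 from 0.66 to 0.99. Of all genes, 746 were called for the growth from day 2 to day 4 (DESeq2 1217, voom 1863, no filter 475, leaving out a library 416 to 1236) and 158 from day 4 to day 7 (419, 296 and 84, and 70 to 294; 89 in the fit of the 20 libraries of these days and 18 without the libraries with lung transcripts). The cause of these differences was not tested. Of the 39 list genes, each at the day of its largest change, 3 single alternatives lost a call (Hspa5 with the block, Rspo1 with voom and in the fit of all libraries) and no direction changed.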
